A study of Mus musculus with 4 samples.

Results

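The heat shock proteins, J proteins and chaperonins are the cell's main protein-folding machines, and their transcripts were followed here across 4 arrays of mouse embryonic stem cells. Members were all probe sets whose single platform gene symbol begins with Hspa, Hspb, Hspd, Hspe, Hsph, Hsp90 or Dnaj, or is Cct2 to Cct8, Tcp1, Hsf1 or Hsf2, with Cct6a and Cct6b counted as Cct6. These came to 172 of 45141 probe sets and 78 of 17097 genes. The rule reads gene symbols alone, but it was chosen with earlier results of these data known. The annotation used here gave no probe set for Hspa1a, Hspd1 (HSP60), Hsp90ab1 or Hsf1, which are not analysed here. By the usual location of the protein, 39 members were called cytosolic, 12 were placed in the endoplasmic reticulum (ER) and 7 in mitochondria. The other 20 were left in a group of other or uncertain location. It holds nuclear, endosomal, axonemal and testis members, among others, and J proteins given no location here, such as Dnajc4, Dnajc16 and Dnajc28. Counts and medians by location depend on these assignments.

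The cells were of the line J1, kept without feeder cells in a serum medium with LIF. The labels describe the line as iP14, with and without doxycycline, and tie to it the overexpression of PRDM14, a PR-domain factor found in early embryos and the germline. The 4 conditions were a scramble control, the scramble control overexpressing PRDM14, a combined shRNA knockdown of Tet1 and Tet2, and that knockdown overexpressing PRDM14. Tet1 and Tet2 encode dioxygenases that oxidise 5-methylcytosine, and the series set out to learn their part in the transcriptional effects of PRDM14. Each condition had 1 array, the number of clones is not given in the sources used here, and the scramble array without PRDM14 is called the scramble array below.

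HSP70 proteins bind exposed hydrophobic stretches of unfolded chains in a cycle driven by ATP. J proteins deliver the client and start ATP hydrolysis, and HSP110 proteins release the nucleotide again. HSP90 acts later on clients such as kinases and receptors, small heat shock proteins hold unfolding proteins in a refoldable state, and the CCT chaperonin closes around actin, tubulin and other clients. Cytosolic heat shock genes are classically driven by HSF1 through heat shock elements, whereas the ER members answer to the unfolded protein response through ATF6 and XBP1 at ER stress response elements.

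Those elements are shown first, since the cytosolic and ER members are described apart below. Windows from 250 bases before to 50 bases after each annotated start were taken from RefSeq for GRCm38.p6, and 64 member genes had one. The ER stress response element was searched on both strands as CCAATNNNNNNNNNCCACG, reverse complement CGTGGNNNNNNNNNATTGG. It was found in 0.119% of 32851 windows and 0.137% of 27025 genes. It was present in 3 members, Hspa5 (BiP, the ER HSP70), Hsp90b1 (GRP94, the ER HSP90) and Dnajc3 (P58IPK, an ER J protein). The stretches below run 5′ to 3′ on the strand of the gene, at chr2:34771985-34772083 (plus strand), chr10:86705493-86705694 (minus strand) and chr14:118937787-118937885 (plus strand), and capitals mark the matches.
Hspa5: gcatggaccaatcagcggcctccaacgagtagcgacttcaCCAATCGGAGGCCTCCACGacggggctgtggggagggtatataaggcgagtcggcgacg
Hsp90b1: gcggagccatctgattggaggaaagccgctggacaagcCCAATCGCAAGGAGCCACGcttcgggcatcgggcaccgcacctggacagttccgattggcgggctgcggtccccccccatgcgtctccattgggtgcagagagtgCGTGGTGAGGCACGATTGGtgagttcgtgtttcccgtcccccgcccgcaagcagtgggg
Dnajc3: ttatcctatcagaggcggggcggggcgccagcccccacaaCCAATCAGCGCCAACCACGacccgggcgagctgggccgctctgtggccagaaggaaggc
The match began at −65 from the start in Hspa5, at −212 and, on the opposite strand, at −107 in Hsp90b1, and at −105 in Dnajc3. The shorter element ERSE-II was searched on both strands as ATTGG and CCACG with any 1 base between them. It was found in 0.0365% of windows and 0.0444% of genes. The only member with it was Dnajb11 (ERdj3), as ATTGGCCCACG from position 8 after the start. Both elements contain CCAAT or its complement. That alone was present in 37.4% of windows, in 41.1% of genes and in 27 of the 64 members.

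A heat shock element was searched on both strands as GAANNTTCNNGAA, reverse complement TTCNNGAANNTTC, and was found in 0.603% of windows and 0.662% of genes. It was present in 3 members, Hspe1 (HSP10, the lid of the mitochondrial chaperonin), Dnajb6 (a cytosolic and nuclear J protein) and Hsph1 (an HSP110). The first 2 are printed from chr1:55088019-55088116 and chr5:29735812-29735897, both on the plus strand, with the matches in capitals.
Hspe1: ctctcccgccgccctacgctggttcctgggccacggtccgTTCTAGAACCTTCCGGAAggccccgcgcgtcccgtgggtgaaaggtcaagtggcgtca
Dnajb6: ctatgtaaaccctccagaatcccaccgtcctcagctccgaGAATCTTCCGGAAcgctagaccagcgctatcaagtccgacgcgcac
In Hspe1 the capitals join 2 overlapping matches that began at −89 and −84. Dnajb6 has 2 annotated starts, from which the match began at −46 or −127. In Hsph1 the match TTCTGGAAAGTTC lay after the start. A match of this kind describes the letters of the window only, and a window without one may hold a degenerate element.

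Signals are deposited log2 values. A gene was read by its brightest probe set, and it was counted as expressed when the value reached 5.40, the median over all named probe sets, which is not a measure of background. On this rule 65 of the 78 members were expressed on at least 1 array. The other 13, among them Hspa4l, Hspa1l, Hspa12a, Hspa12b, Hspb7 and Dnajb4, read between 3.12 and 5.39 throughout. Hspa4l, an HSP110 rich in testis, read 5.02, 4.88, 5.33 and 5.04 on the scramble array, the same with PRDM14, the knockdown array and the same with PRDM14, the order used throughout. Only Dnajc24, a J protein of diphthamide synthesis, passed through some arrays and not others.

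The arrays had medians of 5.09 to 5.11. The scramble array lay furthest from the mean of the other 3, with a root mean square distance of 0.281 against 0.199 to 0.258, and the PRDM14 comparison in scramble cells and the knockdown comparison without PRDM14 both subtract it and cannot be made without it. The Actb 3′ to 5′ control difference, a sign of RNA quality, was 0.46 on it and 0.35 to 0.40 on the others. The same difference for Gapdh was −0.07 on the scramble array and −0.18 to −0.12 on the others. Tet2 read 8.46, 9.33, 7.50 and 8.15. It was lower on the knockdown arrays, by −0.96 without and −1.18 with PRDM14. With PRDM14 it was higher, by 0.865 in scramble and 0.646 in knockdown cells. Tet1 was not read here. Prdm14 read below the filter on all 4 arrays, so each PRDM14 direction rests on the label. All 6 measured stem cell markers were expressed on every array. Of the other lineages, 2 of 6 primitive endoderm, 2 of 4 trophectoderm, 1 of 6 fibroblast and 1 of 3 neuroectoderm markers reached the filter, and Col1a1 read 3.86 to 3.97. The neuroectoderm marker Pax6 read 6.26, 7.12, 5.36 and 5.69.

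With PRDM14 in scramble cells, 3 members differed at least 2-fold. Hspb1 and Hspa5 were higher and Dnajb6 was lower. That is 3 of 65, or 4.62%, beside 2.09% of all genes above the filter. At 1.5-fold there were 4 members, or 6.15%, beside 8.19% of all genes. The members' share was thus above the background at 2-fold and below it at 1.5-fold, on counts of 3 and 4. With PRDM14 in knockdown cells no member reached 2-fold, against 0.63% of all genes, and Hspb1 alone reached 1.5-fold (1.54% against 2.81%). The knockdown without PRDM14 gave no member at 2-fold, against 1.06% of all genes, and 4 at 1.5-fold, against 5.09%. These were Hspa5, Hspa1b and Dnajc21, higher, and Hspa13, lower. The knockdown with PRDM14 gave no member at 2-fold, against 1.1%, and 3 at 1.5-fold, against 4.34%. These were Dnajb6, higher, and Hspa13 and Hspb1, lower. These are sizes between single arrays, with no replicate check and no test. In bulk RNA, fewer cells of a type and less RNA per cell cannot be told apart.

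**Figure D1:**
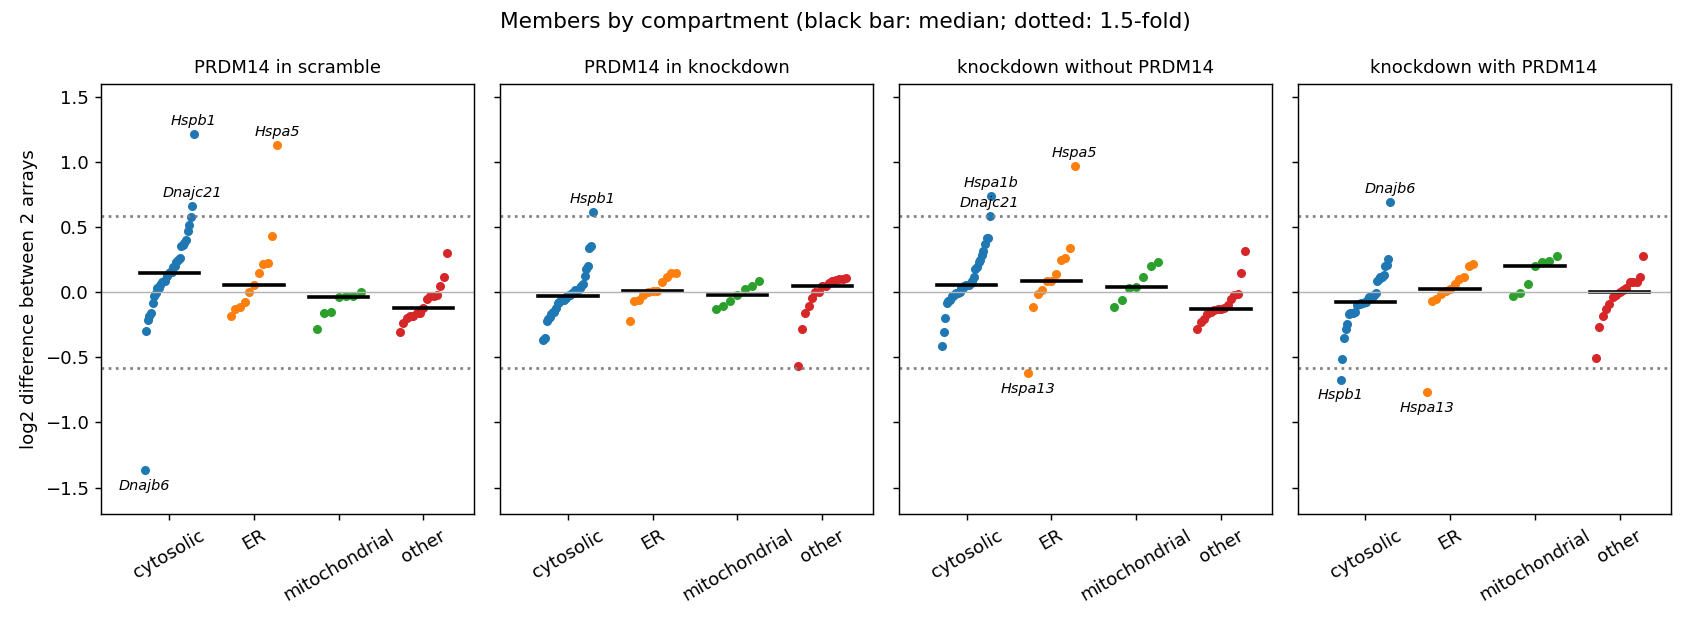
Log2 difference of each member above the filter (points) by compartment, 1 panel per comparison, with the median as a black bar and dotted lines at 1.5-fold. Most points lie within the dotted lines; Hspb1, Hspa5 and Dnajb6 lie furthest out in the first panel, at 1.21, 1.13 and −1.37.

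The ER chaperones differed among themselves. Hspa5, the most abundant HSP70 of the ER and a sensor of unfolded protein there, read 9.48 on the scramble array and 10.62, 10.45 and 10.60 on the others. The scramble array was thus low and the other 3 lay within 0.16 of each other. The PRDM14 difference was 1.13 in scramble cells, a ratio of 2.19, and 0.15 in knockdown cells, and the knockdown difference was 0.97 without PRDM14 and −0.01 with it. Its second probe set repeated the low scramble value, at 8.98 against 10.21, 9.91 and 10.12.

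Hsp90b1, which folds integrins and Toll-like receptors in the ER, read 10.99, 11.42, 11.33 and 11.44. Its second probe set read 8.24, 9.05, 9.14 and 9.0. Both were lowest on the scramble array, by differences of 0.43 and 0.81 from the scramble array with PRDM14, so the size depends on the probe set. The brighter one stayed under 1.5-fold in all comparisons.

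The J proteins that serve Hspa5 differed less. Dnajb11, which delivers nascent chains, read 8.46, 8.68, 8.60 and 8.61. Dnajc3, which carries the printed element in its window, read 7.55, 7.47, 7.64 and 7.42 and had the lowest ER difference with PRDM14 in knockdown cells, at −0.22. Dnajb9 (ERdj4), a classical target of XBP1, read 7.22, 7.22, 7.48 and 7.42. These genes stayed within 1.5-fold, and Dnajc3 and Dnajb9 were not low on the scramble array alone. Dnajc14, an ER membrane J protein, gave the lowest ER difference with PRDM14 in scramble cells (−0.18) and the highest for the knockdown with PRDM14 (0.22), on values of 6.02, 5.84, 5.91 and 6.05.

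Hspa13, a microsomal protein that resembles the HSP70 ATPase domain, followed the knockdown and not the scramble array. It read 6.83 and 7.05 on the scramble arrays and 6.20 and 6.28 on the knockdown arrays, so the knockdown values lay below both scramble values. The differences were −0.62 without and −0.77 with PRDM14. Its other probe sets did not repeat this in full. One read 5.93, 6.34, 5.95 and 5.89, with knockdown differences of 0.02 without and −0.44 with PRDM14, and the remaining 2 differed by less than 0.2 between any arrays and read near or below the filter. With all its probe sets averaged, Hspa13 differed by −0.17 and −0.35.

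**Figure D2:**
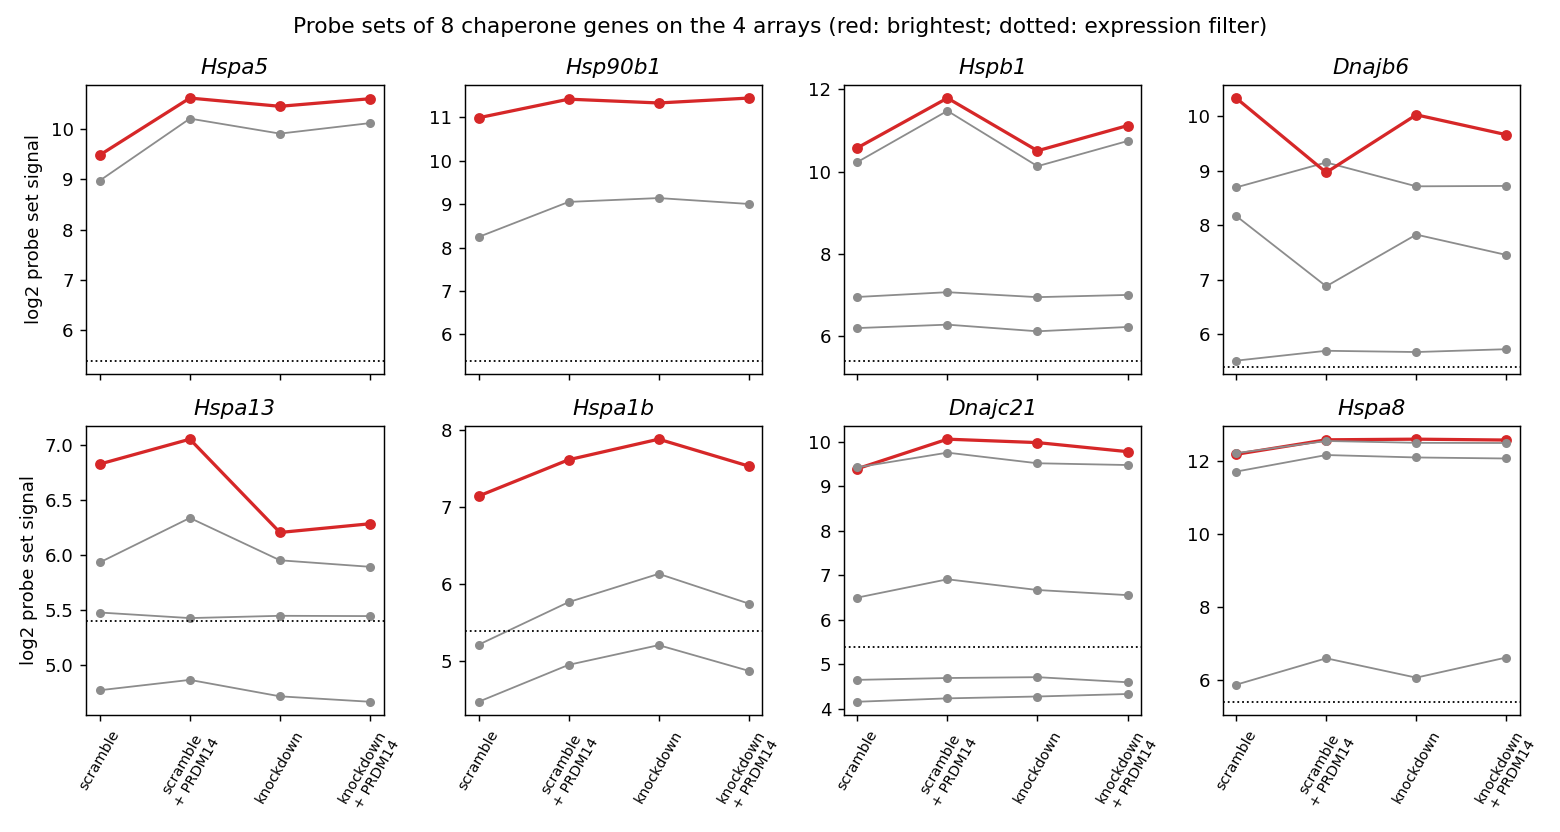
Log2 signal of every probe set of 8 member genes on the 4 arrays, each panel with its own vertical scale, the brightest probe set in red, the others in grey and the filter of 5.40 dotted. Both Hspa5 probe sets are lowest on the scramble array. Some dimmer Dnajb6 probe sets oppose its brightest one with PRDM14 in scramble cells. No dimmer Hspa13 probe set repeats its knockdown difference in both backgrounds.

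Over the 11 expressed ER members the median difference was 0.06 with PRDM14 in scramble cells (7 above 0), 0.01 with PRDM14 in knockdown cells, 0.09 for the knockdown without PRDM14 (8 above 0) and 0.03 with it. Over all genes the 4 medians lay between −0.0009 and 0.0079, and 49.5% to 51.6% of genes lay above 0. With the filter at the 75th percentile, the ER medians of the 2 comparisons that subtract the scramble array were 0.18 and 0.19. The other 2 medians were so near 0 that another setting turned the sign.

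Folding partners of the ER outside the membership rule were read from a list of 18, all above the filter. Their median was 0.40 with PRDM14 in scramble cells, with 13 above 0, and 5 were at least 1.5-fold higher and 1 lower. In knockdown cells the PRDM14 median was −0.03. The knockdown median was 0.23 without PRDM14 (14 above 0) and −0.08 with it (16 below 0). Like Hspa5, most of the partners were lowest on the scramble array, 13 of 18, beside 6 of 11 ER members and 31.1% of all genes. These counts reuse the same scramble array and are not separate observations.

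Among these partners Pdia4, a disulfide isomerase, read 7.16, 8.03, 7.80 and 8.01. Manf, a secreted ER stress protein that binds Hspa5, read 8.89, 9.71, 9.52 and 9.55. Calr (calreticulin), a lectin chaperone of glycoproteins, read 9.76, 10.49, 10.27 and 10.43. All were low on the scramble array and near each other elsewhere. Herpud1, which takes part in ER-associated degradation, went the other way, at 7.88 on the scramble array and 7.18, 7.19 and 7.12 on the rest.

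A second list held 8 genes of the integrated stress response, the ATF4 programme that follows phosphorylation of eIF2α. All 8 were highest on the scramble array, beside 29.7% of all genes. These readings share 1 array and are not separate observations. The 8 genes were listed with earlier results of these data known. Their median difference was −0.66 with PRDM14 in scramble cells and −0.62 for the knockdown without PRDM14, where none lay above 0, and −0.17 and −0.13 in the comparisons that do not use the scramble array. Ddit3 (CHOP), a transcription factor of terminal ER stress, read 6.96, 5.70, 5.85 and 5.91. Chac1, which degrades glutathione, read 8.03, 6.88, 6.95 and 6.79. Asns, asparagine synthetase, read 10.66, 9.29, 9.78 and 9.13, and Atf5 read 7.04, 6.46, 6.29 and 6.19. On the scramble array these ATF4 targets were thus high while the ER chaperone Hspa5 was low. The part of that array's quality in either pattern was not tested.

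**Figure D3:**
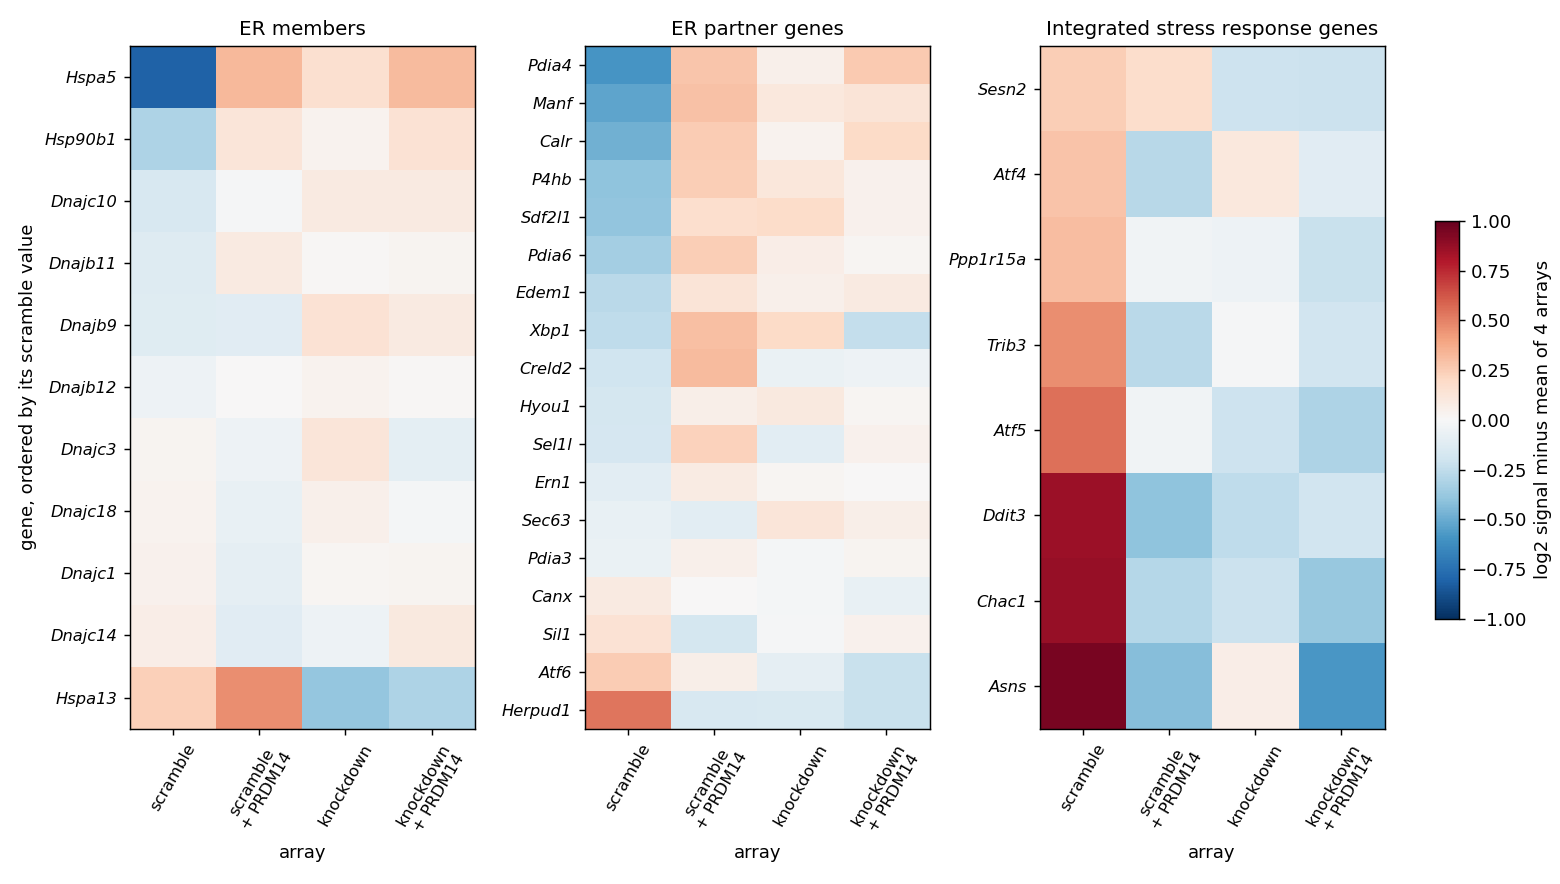
Log2 signal minus the mean of the 4 arrays (colour scale from −1 to 1), for the expressed ER members, the ER partner genes and the integrated stress response genes, each ordered by its scramble value. The scramble column is blue for Hspa5, Manf and Calr, and red for Ddit3, Chac1 and Asns.

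In the cytosol, Hspb1 (HSP27 in human cells, HSP25 in mouse), a small heat shock protein that also binds actin, was the member highest with PRDM14 in both backgrounds. It read 10.58, 11.79, 10.51 and 11.12. Both PRDM14 arrays were above both arrays without it. The difference was 1.21 in scramble cells and 0.61 in knockdown cells, ratios of 2.32 and 1.53, and these comparisons share no array. The knockdown difference was −0.07 without PRDM14 and −0.67 with it. A second probe set gave 1.25 and 0.61 for PRDM14, whereas the 2 dimmer ones, at 6.11 to 7.06, gave 0.05 to 0.12. Averaged over its probe sets, Hspb1 differed by 0.67 and 0.35 with PRDM14.

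The other small heat shock proteins differed less on their brightest probe sets. Hspb8, which works with BAG3 in selective autophagy, read 6.28, 6.31, 6.33 and 6.29. Its dimmer probe sets did not repeat this. One read 5.32, 5.90, 6.29 and 5.95, lowest and below the filter on the scramble array, with a knockdown difference of 0.97 without PRDM14, and the other read 5.22, 5.41, 5.58 and 5.59. Both were lowest on the scramble array. Hspb2 and Hspb3, both known from muscle, read 5.84 to 5.99 and 5.66 to 5.99. On the brightest probe sets the widest of these ranges, 0.34 in Hspb3, stands beside a range of 1.28 for Hspb1.

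Dnajb6, a J protein that keeps polyglutamine proteins from aggregating, was the lowest member with PRDM14 in scramble cells. It read 10.34, 8.97, 10.03 and 9.67, lowest on the scramble array with PRDM14 and next lowest on the knockdown array with PRDM14. The PRDM14 difference was −1.37 in scramble cells, a ratio of 2.58, and −0.37 in knockdown cells. The knockdown difference was −0.31 without PRDM14 and 0.69 with it. A second probe set followed, at 8.17, 6.88, 7.83 and 7.46. Another did not, and was highest where these were lowest, at 8.70, 9.16, 8.72 and 8.72. The remaining one, near the filter at 5.51, 5.69, 5.67 and 5.72, did not follow either. Its PRDM14 differences were 0.18 in scramble and 0.05 in knockdown cells. Dnajb6 is known to give a longer nuclear and a shorter cytosolic isoform, and which transcripts each probe set reads was not analysed here. Averaged over its 4 probe sets, the first difference was −0.51. Its heat shock element is the one printed above.

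**Figure D4:**
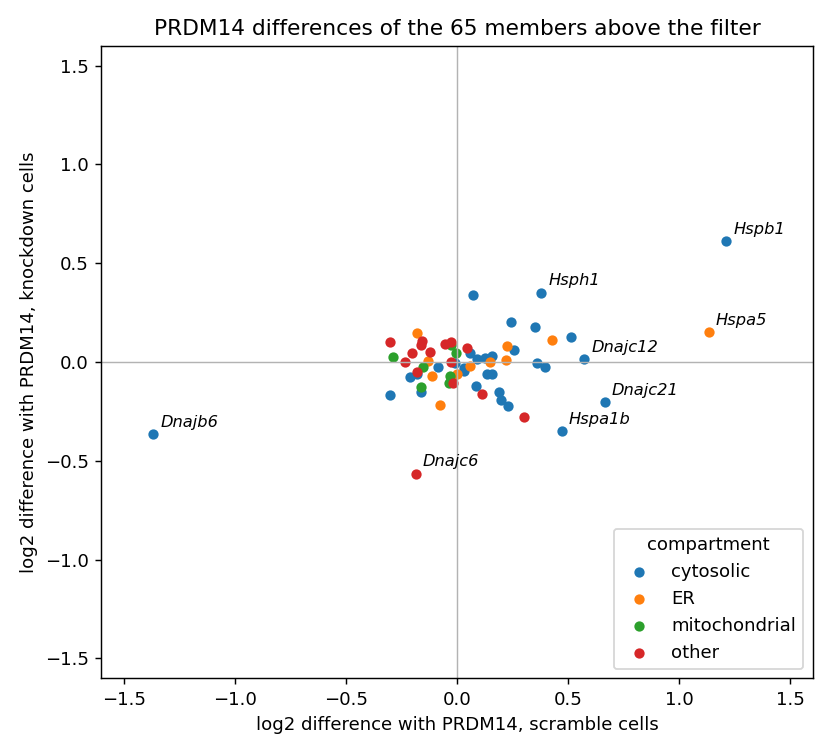
Log2 PRDM14 difference in scramble cells (horizontal) against that in knockdown cells (vertical) for the 65 expressed members, coloured by compartment. Hspb1 lies to the upper right at 1.21 and 0.61, Dnajb6 to the lower left at −1.37 and −0.37, and Hspa5 far right but near 0 on the vertical axis at 1.13 and 0.15.

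Among the cytosolic HSP70 genes, Hspa8 (HSC70), the constitutive form that also uncoats clathrin, read 12.19, 12.58, 12.60 and 12.58. It was low on the scramble array by 0.40 and within 0.03 elsewhere, and 2 further bright probe sets were lowest there too. A dim further probe set read 5.86, 6.59, 6.06 and 6.61, higher with PRDM14 in both backgrounds. Hspa1b, the stress-inducible HSP70, read 7.14, 7.61, 7.88 and 7.53, lowest on the scramble array and highest on the knockdown array. The knockdown difference was 0.74 without PRDM14 and −0.08 with it, and the PRDM14 difference was 0.47 in scramble and −0.35 in knockdown cells. Its other probe sets kept that order, at 5.21, 5.77, 6.13 and 5.75 and at 4.47, 4.95, 5.21 and 4.87, the last of them below the filter. The coding sequence of Hspa1b is nearly identical to that of Hspa1a, and whether these probe sets read both was not analysed here.

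Hspa14, a ribosome-associated HSP70, read 8.90, 9.41, 9.19 and 9.31, again lowest on the scramble array. Hspa2, known from spermatogenesis, read 6.15, 6.31, 6.12 and 6.15 and was nearly flat. Counting Hspa5, Hspa13 and Hspa9, the 7 expressed HSP70 genes had a median of 0.40 with PRDM14 in scramble cells (6 above 0) and 0.03 in knockdown cells. For the knockdown it was 0.29 without PRDM14 and −0.08 with it, where all 7 lay below 0. Over all genes 50.4% lay above 0 in the first comparison and 50.8% in the last. In that last comparison the 7 values lay between −0.16 and −0.0041, except for Hspa13 at −0.77. All but Hspa13 were within the spread between probe sets of 1 gene, 0.16, so their signs carry little. The median range of the 7 genes over the 4 arrays was 0.51, beside 0.26 for all genes.

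The 2 expressed HSP110 genes were higher with PRDM14 in both backgrounds on their brightest probe sets, at sizes under 1.5-fold, whereas Hspa4l, below the filter, was lower by −0.14 and −0.29. Hsph1 (HSP105) read 9.02, 9.40, 9.01 and 9.37, so both PRDM14 arrays exceeded both others, by 0.38 in scramble and 0.35 in knockdown cells. It had 1 probe set. Hspa4 (APG-2) read 10.80, 11.05, 10.60 and 10.80, with differences of 0.25 and 0.20. Another Hspa4 probe set read 10.64, 10.84, 10.89 and 10.68 and gave the opposite sign in knockdown cells.

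Hsp90aa1, the inducible cytosolic HSP90, read 11.89, 12.08, 12.14 and 11.99 and stayed within 0.25. A list of 24 genes held cochaperones of HSP90 and HSP70 together with prefoldin subunits (Pfdn genes and Vbp1). Of these genes 22 were measured and 20 expressed. Their medians lay between 0.01 and 0.07 in the 4 comparisons. Bag1, a nucleotide exchange factor for HSP70, was the only one to reach 1.5-fold, at 8.30, 8.30, 8.89 and 8.79, higher on both knockdown arrays.

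The cytosolic J proteins had a median range of 0.41 over the 4 arrays, beside 0.26 for all genes. Dnajb1 (HSP40), a partner of HSP70 in disaggregation, read 8.86, 9.09, 9.28 and 9.06, and its second probe set gave the same order. The order matched that of Hspa1b, from the scramble array as lowest to the knockdown array as highest. Dnaja1, a partner of Hspa8, read 10.27, 10.63, 10.46 and 10.46, and its dimmer probe set, at 9.46, 9.71, 9.22 and 9.42, gave the opposite sign for the knockdown without PRDM14.

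Among J proteins with narrower tasks, Dnajc21, which assists late maturation of the large ribosomal subunit, read 9.39, 10.06, 9.98 and 9.78. It was lowest on the scramble array, with a PRDM14 difference of 0.66 and a knockdown difference of 0.59 from that array. A second bright probe set read 9.43, 9.76, 9.52 and 9.48, and so gave 0.33 and 0.09. Dnajc12, a partner of the aromatic amino acid hydroxylases, read 6.79, 7.36, 6.83 and 6.84, high on the scramble array with PRDM14 alone, and gave the lowest J protein difference for the knockdown with PRDM14, at −0.52. Dnajc7 (TPR2), which works between HSP70 and HSP90, read 10.52, 10.44, 10.11 and 10.08, lower on both knockdown arrays, with differences of −0.41 and −0.35.

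Over the 32 expressed cytosolic members the median was 0.15 with PRDM14 in scramble cells, with 24 above 0, and −0.03 in knockdown cells, with 12 above 0. For the knockdown it was 0.06 without PRDM14, with 20 above 0, and −0.08 with it, with 9 above 0. Over all genes 50.4%, 49.5%, 51.6% and 50.8% lay above 0 in these comparisons. Of these members 16 were lowest on the scramble array, beside 31.1% of all genes.

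The CCT chaperonin, a double ring of different subunits that folds actin and tubulin, differed little on the brightest probe sets. Its alpha subunit Tcp1 read 11.19, 10.98, 11.26 and 11.19. Cct2 read 11.89, 11.92, 11.92 and 11.89, a range of 0.03 that was smaller than in all but 0.998% of the expressed genes. Cct3 read 11.41, 11.55, 11.53 and 11.47. On their brightest probe sets these subunits sat within a narrow band on all arrays. The dimmer Cct3 probe sets were all lowest on the scramble array too. They gave 0.17 to 0.38 with PRDM14 in scramble cells and 0.11 to 0.35 for the knockdown without PRDM14. Cct4 read 11.49, 11.31, 11.49 and 11.43, and a dimmer Cct4 probe set at 7.45, 7.54, 6.85 and 7.10 was lower on the knockdown arrays. Cct5 read 11.82, 11.66, 11.76 and 11.61, and Cct6a read 11.94, 11.91, 11.91 and 11.83. None of these brightest probe sets differed by 1.5-fold between any arrays. Cct7 read 11.12, 11.21, 11.29 and 11.31, and its second probe set read 10.89, 11.07, 11.15 and 11.15, also lowest on the scramble array. Cct8 read 11.21, 11.20, 11.29 and 11.28. The median range of the 8 somatic subunits was 0.16, beside 0.26 for all genes, and Tcp1 had the widest at 0.29. Cct6b, the testis form of the zeta subunit, read 5.41, 5.60, 5.64 and 5.45, close to the filter.

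The mitochondrial members had a median range of 0.23, near the 0.26 of all genes. Hspa9 (mortalin), the HSP70 of the matrix and of the import motor, read 10.53, 10.50, 10.56 and 10.49, a range of 0.07. Hspe1 read 11.46, 11.44, 11.58 and 11.67, highest on the knockdown arrays. None of the 7 members reached 1.5-fold in any comparison, and the widest range was 0.36, in Dnajc15, a J protein of the inner membrane.

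All 7 mitochondrial differences lay below 0 with PRDM14 in scramble cells, or 6 of 7 with centred arrays or with probe sets averaged, with a median of −0.03. Over all genes 50.4% lay above 0. Dnajc19, a J protein of the import motor, was lowest at −0.29, on values of 9.22, 8.94, 9.11 and 9.14, and Dnajc11, which takes part in cristae organisation, was nearest 0. For the knockdown with PRDM14 the median was 0.20, or 0.07 when probe sets were averaged, with 5 above 0. Dnajc11 was highest there, at 0.28, and also without PRDM14, at 0.23, on values of 7.69, 7.69, 7.92 and 7.97. Dnaja3 (TID1) read 8.44, 8.41, 8.48 and 8.38 and was lowest there, while its dimmer expressed probe set was lowest on the scramble array, at 6.58 against 6.93 on the same with PRDM14. Of the 7 members, 5 were lowest on the scramble array with PRDM14, beside 26.5% of all genes, and none on the scramble array. The 8 measured partners in mitochondrial folding and proteolysis had medians between −0.09 and 0.04, and none reached 1.5-fold.

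**Figure D5:**
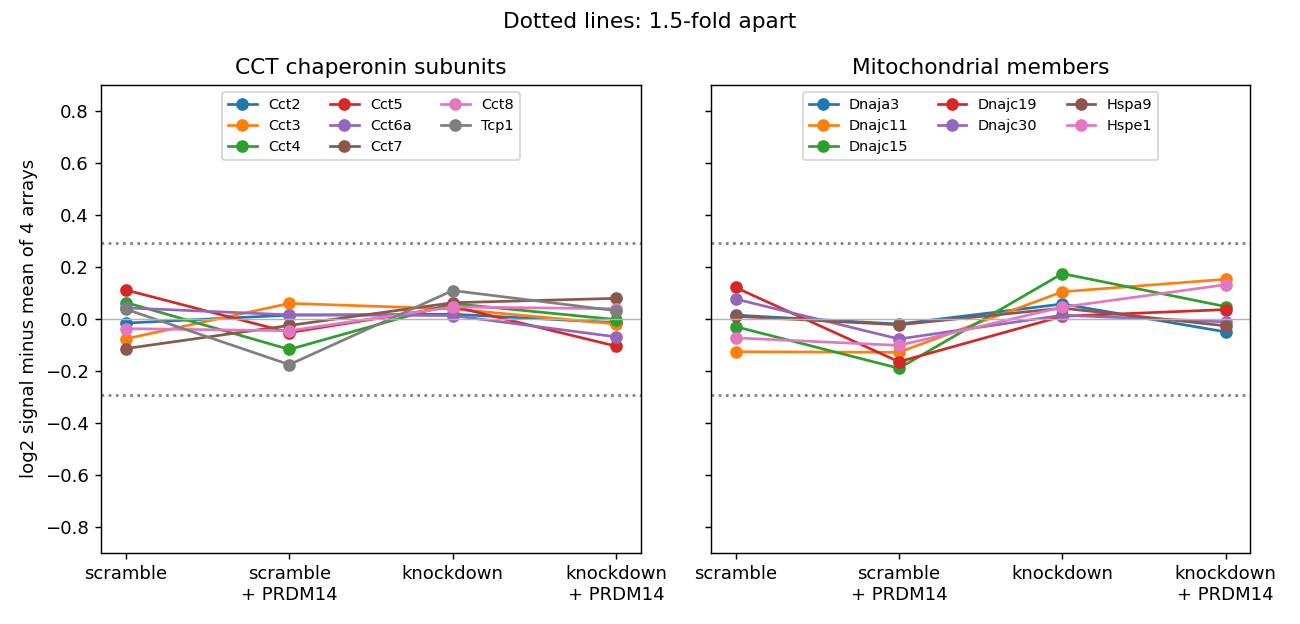
Log2 signal minus the mean of the 4 arrays for the CCT subunits (left) and the mitochondrial members (right), with dotted lines that stand 1.5-fold apart. All lines stay within the dotted band; the widest ranges are 0.29 for Tcp1 and 0.36 for Dnajc15.

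On the brightest probe sets, the other or uncertain group was shifted the opposite way from the ER and cytosolic members on the scramble array. Of its 15 expressed members, 11 were highest there, beside 29.7% of all genes, and 1 was lowest. The median was −0.12 with PRDM14 in scramble cells (12 below 0) and −0.13 for the knockdown without PRDM14 (13 below 0), and 0.05 and 0.0039 in the comparisons that do not use that array. The first 2 medians are smaller than the spread between probe sets of 1 gene there, 0.22 and 0.21. The dimmer expressed probe sets of Dnajc5 were also highest on the scramble array. Those of Dnajc8 and Dnajc16 were instead higher with PRDM14 in scramble cells, by 0.10 and 0.11. None of the 15 members reached 1.5-fold in these 4 comparisons. Hsf2, a heat shock factor active in development, read 6.90, 6.67, 6.75 and 6.75. Dnajc6 (auxilin), which recruits Hspa8 to clathrin coats, read 8.36, 8.17, 8.23 and 7.67, low on the knockdown array with PRDM14. Its differences of −0.56 with PRDM14 in knockdown cells and −0.51 for the knockdown with PRDM14 were the lowest of this group. Hspbap1, a protein that binds Hspb1, read 7.48, 7.79, 7.80 and 7.52 and was the highest of the group in both comparisons that subtract the scramble array, at 0.30 and 0.32. Its dimmer expressed probe set, at 6.19, 6.05, 5.94 and 5.91, gave the opposite sign there. Dnajc27, a Rab-like GTPase with a J domain, read 6.48, 6.17, 6.34 and 6.45, with −0.30 as the lowest with PRDM14 in scramble cells and 0.27 as the highest for the knockdown with PRDM14. Dnajc5, the cysteine string protein of secretory vesicles, read 8.42, 8.26, 8.14 and 8.24, with the lowest difference for the knockdown without PRDM14, at −0.28, and the highest with PRDM14 in knockdown cells, at 0.11. Dnajc9, a histone chaperone, read 8.17, 8.15, 8.15 and 8.15, the narrowest range of all members.

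The dependence of the PRDM14 difference on the knockdown was taken as the difference in knockdown cells minus that in scramble cells, which uses all 4 arrays once. It was at least 1.5-fold in 5 of 65 members, a share below the 9.1% of all genes. The values were −0.98 for Hspa5, −0.87 for Dnajc21, −0.82 for Hspa1b, −0.60 for Hspb1 and 1.00 for Dnajb6. By location the median was −0.12 for cytosolic members (24 of 32 below 0), −0.14 for ER members (8 of 11), 0.05 for mitochondrial members (2 of 7) and 0.13 for the others (4 of 15). Over all genes it was −0.0041, with 5353 of 10519 below 0. Each of these medians is smaller than the spread between probe sets of 1 gene, 0.15 to 0.22. With 1 array per condition this quantity has no error of its own.

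A measure of spread comes from probe sets of 1 gene, which share the array and the culture. They may read different transcripts, so this spread need not be technical alone. Across all genes with several expressed probe sets their differences had a pooled SD of 0.22 and 0.15 for PRDM14 in scramble and knockdown cells, and of 0.21 and 0.16 for the knockdown without and with PRDM14. Among members the values were 0.31, 0.16, 0.21 and 0.20, and the probe sets gave 1 direction in 21 of 32, 16 of 31, 20 of 32 and 18 of 31 genes. This spread holds no variation between cultures or arrays, so it gives no error for a difference between conditions.

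The only test the design allows is an additive fit over all 4 arrays, with 1 residual degree of freedom per gene, for average effects of PRDM14 and of the knockdown. In limma no member passed 5% after Benjamini-Hochberg adjustment over 10519 genes for either effect, and neither did any other gene (0% and 0%). At an unadjusted p under 0.05, 3 members (4.62%) stood out for each effect, beside 6.07% and 5.74% of all genes. For PRDM14 the limma fit gave 0.91 ± 0.18 (SE) for Hspb1, with an unadjusted p of 0.0127, 0.37 ± 0.11 for Hsph1 and 0.27 ± 0.08 for Dnajc24, all with an adjusted p of 0.782. For the knockdown the limma fit gave −0.70 ± 0.08 (SE) for Hspa13, with an unadjusted p of 0.0026, −0.38 ± 0.09 for Dnajc7 and 0.29 ± 0.08 for Dnajc24, all with an adjusted p of 0.802. Dnajc24 read 5.31, 5.66, 5.68 and 5.86, lowest and below the filter on the scramble array. The additive fit assumes equal PRDM14 differences in both backgrounds, which Hspa5 does not show, and it gave Hspa5 an unadjusted p of 0.105 for PRDM14.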

How the data were processed

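Total RNA was labelled with a 3′ IVT kit, per the labels' protocols. The deposited log2 probe set signals of 4 arrays were made with Affymetrix Expression Console, per the submitters' processing notes. For its version, summary method and background correction the sources used here give nothing, and base 2 was read from the span of values, 2.78 to 13.2. Single arrays limit the precision, and no coordinates were taken from the array files, whose build is not named.

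Only probe sets with 1 platform symbol were used (28898; 551 had several). All 172 member probe sets matched the RefSeq gene table. A gene was its probe set with the highest mean. The filter was the median named value, 5.40, and a call needed a 2-fold (or 1.5-fold) difference with the higher array at the filter. Members, locations and partner lists were chosen with earlier results of these data known. Named genes were the major chaperones, members 1.5-fold different in a comparison, the highest and lowest of each compartment, and up to 4 partners a list past 1.5-fold. Further members stand in the text as examples chosen after their values were seen.

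Limma 3.58.1 in R 4.3.3 fitted an additive model (lmFit, eBayes with a trend, median 2.25 prior degrees of freedom). The fit was also run on data simulated from that same additive model, which cannot show that the model suits these arrays. Other steps used Python 3.11.15 with pandas 2.3.3. Alternatives were other folds, filters, probe set averages, raised low values, centred arrays and eBayes without a trend.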

Additional observations from a re-analysis of the deposited data

Results flagged for a closer look

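For 4 members the difference had opposite signs in the backgrounds compared, and its change between them was at least 1.5-fold. None of these contrasts was tested. The knockdown difference of Hspa5 was 0.97 without PRDM14 and −0.01 with it, a change of −0.98. That of Dnajb6 was −0.31 and 0.69, a change of 1.00. Dnajc21 was higher with PRDM14 in scramble cells (0.66) and lower in knockdown cells (−0.20), and its knockdown difference was 0.59 without and −0.28 with PRDM14, a change of −0.87 on either reading. Hspa1b gave 0.47 and −0.35 for PRDM14 and 0.74 and −0.08 for the knockdown, a change of −0.82. The −0.01 of Hspa5 and the −0.08 of Hspa1b are smaller than the spread between probe sets of 1 gene, 0.16, so their sign carries little. Both probe sets of Hspa5 and all 3 of Hspa1b repeat the pattern, whereas the probe sets of Dnajb6 differ in direction.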

How the results depend on the processing

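With PRDM14 in scramble cells, the 3 members at 2-fold became 4 at 1.5-fold, 0 at 3-fold and 1 (Hspa5) with probe sets averaged. At 1.5-fold the other comparisons, with 0 members at 2-fold, gave 1 (PRDM14 in knockdown cells), 4 (knockdown without PRDM14) and 3 (knockdown with PRDM14). The count of 3 was the same without the filter, with a filter at the 75th percentile, with low values raised and with centred arrays, which moved an array by at most 0.0138. Averaging probe sets moved the named differences of Dnajb6, Dnajc21, Hspa13 and Hspb1 towards 0 and turned no sign. The compartment medians moved by less than the spread between probe sets. Most of the medians are themselves smaller than that spread, so this check could hardly fail. The ER median for the knockdown with PRDM14 went from 0.026 to −0.011 with probe sets averaged. The additive fit gave 0 members past 5% for both effects in each alternative. No paired analysis was possible because each condition had 1 array. With 1 array per condition no replicate could be left out, and members read near the filter cannot be told from background.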
